A study of Homo sapiens with 9 samples.

Results

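The nuclear genes of the respiratory chain were taken as the protein coding genes whose symbols begin with NDUF, COX, UQCR or ATP5. These names belong to genes of complexes I, III and IV, which pass electrons to oxygen, and of complex V, the ATP synthase. Subunit genes of these complexes with other names, such as CYC1 of complex III, are left out and were not analysed here. The rule found 97 genes, of 51111 listed for PABPN and 51268 for PABPC, of which 80 encode subunits, 16 encode assembly factors and 1 encodes an inhibitor of complex V. The rule used names alone and no measured value, but it was chosen with earlier results of these data known. NDUFA4 and NDUFA4L2 were counted with complex IV, where the NDUFA4 protein is now known to reside. Of the 97 genes, 91 had a mean normalized read count (baseMean) above 50 and an adjusted p in both tables, and these are the tested genes below.

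The measurement was RNA immunoprecipitation (RIP) with an antibody against PABPN, the poly(A) binding protein of the nucleus, or PABPC, that of the cytoplasm, followed by total RNA sequencing. All cells were HEK293T, a long established human embryonic kidney line, crosslinked with 0.1% formaldehyde for 10 min, and the labels name no other treatment or altered gene. There were 3 input, 3 PABPN RIP and 3 PABPC RIP libraries, and each of the 3 biological replicates was a single lysate divided between the antibodies. Library depth was worked out as 36500000 to 52200000 reads over listed genes. No library from a control antibody was analysed here, so input is the only reference. Of the genes chosen as a check of the cell line, NEFL, NEFM, INA, PAX2 and LHX1 were present in input, while the mean normalized counts of PTPRC, ALB and HBB were at most 5.04.

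Poly(A) tails are first coated by PABPN in the nucleus and later by PABPC in the cytoplasm, where PABPC takes part in translation and stability of mRNA. The respiratory chain sits in the inner mitochondrial membrane. Complex I oxidizes NADH, complex III oxidizes ubiquinol, complex IV reduces oxygen, and complex V uses the proton gradient that they build to make ATP. A few core subunits of complexes I, III, IV and V are encoded by mitochondrial DNA, and the others are encoded in the nucleus, translated in the cytoplasm and imported. Assembly factors help to build a complex but are not part of the finished enzyme.

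Several members have close copies, and their coding sequences are shown because they bear on how well the reads could tell the copies apart. UQCRH encodes the hinge protein of complex III, and UQCRHL is a copy of it in a single exon. Capitals mark the positions at which the copies differ in the GENCODE release 44 transcripts, and both lines run 5′ to 3′ from the start to the stop codon.
UQCRH: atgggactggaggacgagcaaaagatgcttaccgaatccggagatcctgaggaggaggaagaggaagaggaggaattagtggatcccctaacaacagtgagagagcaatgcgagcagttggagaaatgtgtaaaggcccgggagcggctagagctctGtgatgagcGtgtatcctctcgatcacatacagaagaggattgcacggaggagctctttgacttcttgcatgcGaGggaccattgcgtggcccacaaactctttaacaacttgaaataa
UQCRHL: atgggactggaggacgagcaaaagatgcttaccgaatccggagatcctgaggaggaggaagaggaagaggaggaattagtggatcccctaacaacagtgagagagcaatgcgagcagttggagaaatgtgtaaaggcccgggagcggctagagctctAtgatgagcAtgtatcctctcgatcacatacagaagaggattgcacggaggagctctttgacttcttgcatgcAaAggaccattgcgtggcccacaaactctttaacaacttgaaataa
The coding sequence of UQCRH lies on the plus strand of chromosome 1 (GRCh38, chr1:46303767-46316584, introns included), and that of UQCRHL on the minus strand (chr1:15807374-15807649). They differed at 4 of 276 positions, and the longest identical stretch was 157 bases, longer than the 75-nt reads. How reads matching both genes were counted is not given in the sources used here, so the values of this pair are uncertain.

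ATP5MC1, ATP5MC2 and ATP5MC3 encode the c subunit, which forms the rotating ring of complex V. The last 77 codons of the 3 genes encode the same amino acids, and capitals mark the bases at which at least 1 gene differs from the others in this stretch, stop codon included.
ATP5MC1: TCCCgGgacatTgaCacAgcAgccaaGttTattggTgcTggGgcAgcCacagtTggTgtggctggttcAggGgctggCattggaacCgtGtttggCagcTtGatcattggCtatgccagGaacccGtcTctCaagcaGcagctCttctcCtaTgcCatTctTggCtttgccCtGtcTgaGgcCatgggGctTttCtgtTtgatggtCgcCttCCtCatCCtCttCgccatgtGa
ATP5MC2: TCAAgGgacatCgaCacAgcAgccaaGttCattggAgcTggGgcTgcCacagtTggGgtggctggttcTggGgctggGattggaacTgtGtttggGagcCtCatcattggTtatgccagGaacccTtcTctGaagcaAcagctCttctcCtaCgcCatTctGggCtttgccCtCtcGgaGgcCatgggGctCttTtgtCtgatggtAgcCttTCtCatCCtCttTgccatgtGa
ATP5MC3: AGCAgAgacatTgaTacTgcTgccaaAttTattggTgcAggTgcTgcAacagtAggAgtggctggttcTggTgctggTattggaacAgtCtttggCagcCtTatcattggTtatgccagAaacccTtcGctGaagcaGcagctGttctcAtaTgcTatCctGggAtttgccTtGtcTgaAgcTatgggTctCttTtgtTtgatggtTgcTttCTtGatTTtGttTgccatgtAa
In this stretch 58 of 234 bases differed, and no run of bases identical in all 3 genes was longer than 11. Between ATP5MC1 and ATP5MC2, 88.5% of the bases were the same, against 79.9% between ATP5MC3 and either of them. The c subunit genes lie on chromosomes 17, 12 and 2.

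As a group, transcripts of the respiratory chain genes made up 0.556% of the reads of all listed genes in input, 0.393% in PABPN RIP and 1.34% in PABPC RIP. These shares are sums of group means, with no value per library and thus no error of their own. As ratios to input, complex IV subunits had the lowest share with PABPN and the highest with PABPC among the complexes, 0.513 and 3.55, with shares of 0.0652% in input, 0.0335% in PABPN RIP and 0.232% in PABPC RIP. Complex V subunits went from 0.161% to 0.0837% and 0.419%, complex III subunits from 0.0603% to 0.0408% and 0.168%, and complex I subunits from 0.197% to 0.161% and 0.432%. Assembly factors had nearly level shares of 0.0688%, 0.0704% and 0.0768%, but this sum joins genes that went both ways with PABPC. NDUFAF2, NDUFAF6 and COX10, the most abundant factors in input, were depleted there, while 11 of the 16 factors were enriched, as given below.

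Single genes were compared as log2 fold changes of RIP over input with their standard errors (SE), from the deposited tables. A gene was called depleted or enriched with a fold change beyond 0.5 on the log2 scale, a Benjamini-Hochberg adjusted p of at most 0.01 and baseMean above 50. In PABPN RIP, 54 of the 91 tested genes (59.3%) were depleted, where 14.6% of all 15526 tested genes were, and 4 (4.40%) were enriched, where 17.5% of all genes were. The other 33 were not called. In PABPC RIP, 83 genes (91.2%) were enriched, where 38.4% of all 14843 tested genes were, 6 (6.59%) were depleted, where 32.4% of all genes were, and 2 were not called. The median log2 fold change of the 91 genes was -0.62 with PABPN and 1.73 with PABPC, beside medians of -0.041 and 0.14 over all tested genes. The shares of all genes given here are also the background for the counts by complex below. Both comparisons use the same input libraries, so their errors are not independent. The tables hold group values, and values of single libraries were not analysed here.

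**Figure D1:**
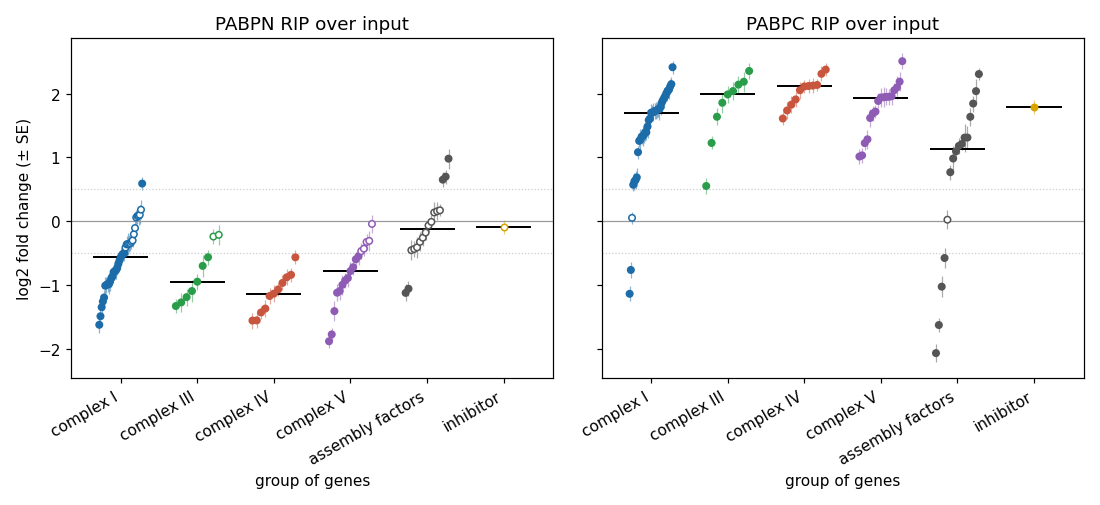
Log2 fold change of RIP over input for the 91 tested genes, PABPN on the left and PABPC on the right, by complex and role. Points are genes with their SE, filled where called, horizontal bars are group medians, and dotted lines mark -0.5 and 0.5. All 11 complex IV subunits lie below -0.5 with PABPN and above 0.5 with PABPC, while assembly factors spread to both sides in each RIP.

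The difference between the antibodies was tested directly, as the PABPN log2 fold change minus the PABPC one, with a two-sided normal test adjusted over the 14579 genes tested in both tables. The level was higher with PABPC for 81 of the 91 genes (89.0%), where 33.4% of all genes were, and higher with PABPN for 4 genes (4.40%), where 36.1% of all genes were. The 4 genes higher with PABPN were NDUFAF2, NDUFAF6, NDUFAF7 and NDUFA10. No call was made for 6 genes, namely NDUFAF5, NDUFS4, NDUFV3, COX10, COX19 and COX20. The shared input makes the error used here too large rather than too small.

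**Figure D2:**
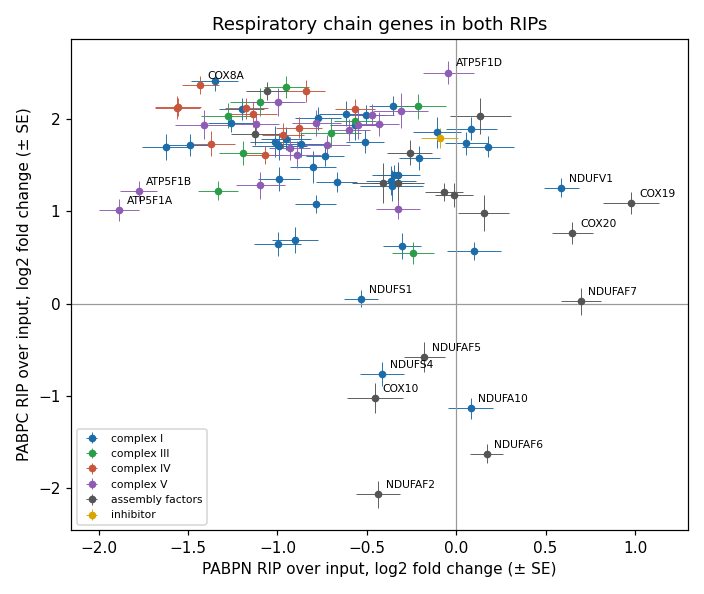
Log2 fold change with PABPN (horizontal) against PABPC (vertical), both over the same input libraries, for the 91 tested genes with SE bars and colours by complex and role. Most genes lie at the upper left. NDUFAF2 is lowest on the vertical axis at -2.07, and ATP5F1A is lowest on the horizontal axis at -1.88.

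Complex IV is cytochrome c oxidase, and every tested subunit gene was called in both RIPs. Of its 17 listed nuclear subunit genes 11 were tested, and all 11 were depleted with PABPN (median log2 fold change -1.14, range -1.56 to -0.57) and enriched with PABPC (median 2.11, range 1.61 to 2.38). COX8A, which encodes a small membrane subunit, stood at 46 RPM (reads per 1000000 reads of listed genes) in input, 18.7 in PABPN RIP and 209 in PABPC RIP. Its log2 fold change was -1.43 ± 0.10 (SE) with PABPN and 2.38 ± 0.10 with PABPC, and the difference of -3.81 ± 0.14 was significant (adjusted p = 3.7e-151). COX5B had the next highest PABPC value of 2.31 ± 0.12, with -0.84 ± 0.11 for PABPN. The lowest PABPC values were 1.61 ± 0.10 for COX6C and 1.73 ± 0.13 for COX7B. With PABPN, the lowest were -1.56 ± 0.12 for COX6B1 and -1.56 ± 0.13 for COX6A1, which differ by less than either error. COX7A2 was closest to input with PABPN, at -0.57 ± 0.11, followed by COX5B.

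Complex IV is also where tissue-restricted copies are best known. COX4I1, the common form of the largest nuclear subunit, stood at 101, 60.2 and 332 RPM in input, PABPN RIP and PABPC RIP, while its alternative form COX4I2 was at 0.00465 in input. COX6B1 stood at 50.7, 18.9 and 193, and its testis form COX6B2 at 0.226 in input. COX6A1 stood at 43.2, 16.1 and 166. Its muscle form COX6A2 had 0 reads in every library, which allows up to 0.0822 RPM in the shallowest library, counting error only. COX7A2 stood at 48.3, 35.8 and 183, and the muscle form COX7A1 at 0.0219 in input. NDUFA4 was at 39.4, 19.7 and 143, and NDUFA4L2 at 0.539 in input. COX7B2, at 0.0658, completes the 6 genes that were too low to test. NDUFA4 itself was depleted with PABPN (-1.14 ± 0.13) and enriched with PABPC (2.05 ± 0.14), as was COX4I1 (-0.88 ± 0.13 and 1.91 ± 0.11).

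Complex V had 17 subunit genes, of which 12 were depleted with PABPN (median -0.78) and all 17 were enriched with PABPC (median 1.94). ATP5F1A and ATP5F1B encode the alpha and beta subunits of the catalytic F1 head, and they had the lowest PABPN values of all 91 genes. ATP5F1B went from 409 RPM in input to 131 in PABPN RIP and 836 in PABPC RIP, with log2 fold changes of -1.78 ± 0.10 and 1.22 ± 0.11. ATP5F1A went from 248 to 73.7 and 437, with -1.88 ± 0.11 and 1.01 ± 0.12. The depletion of both from PABPN RIP was over 3-fold (3.69-fold and 3.43-fold), and their PABPC enrichment was among the smaller ones of this complex, next to 1.03 ± 0.11 for ATP5F1C, the gamma subunit of the central stalk. ATP5F1D, the delta subunit of the same stalk, was not called with PABPN (-0.044 ± 0.14, adjusted p = 0.84) and had the highest PABPC value of all 91 genes (2.51 ± 0.12), going from 24 to 119 RPM.

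The 4 peripheral stalk genes ATP5PB, ATP5PD, ATP5PF and ATP5PO, whose products hold the head still, were all depleted with PABPN (-1.10 to -0.72) and enriched with PABPC (1.28 to 1.72). Of the 5 accessory genes of the membrane part, 3 were depleted with PABPN and all were enriched with PABPC, with ATP5ME highest at 2.19 ± 0.15. With PABPC the c subunit genes were at 2.10 ± 0.19 for ATP5MC1, 1.88 ± 0.12 for ATP5MC2 and 1.94 ± 0.16 for ATP5MC3. With PABPN they were further apart, at -0.31 ± 0.15, -0.60 ± 0.12 and -1.41 ± 0.16, and ATP5MC1 alone was not called. Differences between these genes were not tested. ATP5IF1, the inhibitor that stops complex V from running backwards, was not called with PABPN (-0.091 ± 0.10) and was enriched with PABPC (1.80 ± 0.11).

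Under the name rule complex III had 9 subunit genes, 7 of them depleted with PABPN (median -0.95) and all 9 enriched with PABPC (median 1.99). The 3 genes named for their central roles had different values. UQCRC1, a core protein, was depleted with PABPN (-1.33 ± 0.11) and enriched with PABPC (1.23 ± 0.10), with 104, 45.3 and 212 RPM in input, PABPN RIP and PABPC RIP. UQCRC2, the other core protein, was not called with PABPN (-0.24 ± 0.12) and had the lowest PABPC value of the complex (0.55 ± 0.12). UQCRFS1, the Rieske iron-sulfur protein, had -0.70 ± 0.17 and 1.86 ± 0.16. Among the accessory subunits UQCRQ and UQCRHL had the highest PABPC values, at 2.35 ± 0.12 and 2.19 ± 0.15. With PABPN, UQCR10 was at -1.27 ± 0.15, while UQCR11 was closest to input at -0.22 ± 0.16. UQCRH, the spliced gene of the pair printed above, had -0.57 ± 0.12 with PABPN and 1.99 ± 0.13 with PABPC, beside -1.10 ± 0.17 for UQCRHL with PABPN. UQCRH stood at 136 RPM in input and UQCRHL at 9.96.

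Complex I, the largest, had 37 subunit genes, of which 22 were depleted and 1 was enriched with PABPN (median -0.56), and 34 were enriched and 2 depleted with PABPC (median 1.70). The 7 core subunits, which include those that carry the flavin and iron-sulfur clusters, had medians of -0.30 (PABPN) and 1.26 (PABPC). In the arm that oxidizes NADH, the 3 genes each had a different outcome with PABPN. NDUFV1, which binds NADH, was enriched in both RIPs, at 0.59 ± 0.10 with PABPN (adjusted p = 4.0e-08) and 1.26 ± 0.10 with PABPC, going from 88.5 RPM in input to 146 and 185. NDUFS1, the largest subunit, was depleted with PABPN (-0.53 ± 0.10) and not called with PABPC, where its 95% interval ran from -0.13 to 0.23. NDUFV2 was not called with PABPN (-0.30 ± 0.10) and was enriched with PABPC (0.62 ± 0.14).

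In the arm that binds ubiquinone, NDUFS3, NDUFS7 and NDUFS8 were not called with PABPN (-0.35 ± 0.12, 0.056 ± 0.12 and 0.084 ± 0.14). They were enriched with PABPC, at 1.39 ± 0.12 for NDUFS3, 1.74 ± 0.13 for NDUFS7 and 1.90 ± 0.12 for NDUFS8. The 30 accessory subunits, which surround the core, held 20 genes depleted with PABPN and none enriched, and 28 enriched and 2 depleted with PABPC. NDUFS5 and NDUFA13 had the lowest PABPN values, at -1.63 ± 0.13 and -1.49 ± 0.12, and NDUFB1 had the highest of the accessory subunits, at 0.18 ± 0.15, not called. NDUFB11 and NDUFA11 had the highest PABPC values, at 2.41 ± 0.10 and 2.15 ± 0.11. NDUFS5 stood at 92.5, 32.9 and 263 RPM in input, PABPN RIP and PABPC RIP, and NDUFB11 at 47, 20.2 and 219.

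The accessory subunits depleted with PABPC were NDUFA10 and NDUFS4. NDUFA10 had -1.14 ± 0.12 with PABPC and 0.081 ± 0.13 with PABPN, and it went from 248 RPM in input to 288 in PABPN RIP and 98.4 in PABPC RIP. Its level was higher with PABPN by 1.22 ± 0.17 on the log2 scale (adjusted p = 2.1e-12). NDUFS4 had -0.77 ± 0.13 with PABPC and -0.42 ± 0.12 with PABPN, a difference of 0.35 ± 0.18 that did not pass (adjusted p = 0.061).

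The assembly factors had medians nearer to input than the subunits in both RIPs. Of 16 genes, 2 (12.5%) were depleted and 3 (18.75%) enriched with PABPN (median -0.12), near the 14.6% and 17.5% of all tested genes. With PABPC, 4 (25%) were depleted and 11 (68.75%) enriched (median 1.14, range -2.07 to 2.31), where 32.4% and 38.4% of all genes were. The 74 subunits had medians of -0.79 and 1.76 and ranged from -1.14 to 2.51 with PABPC. With PABPN the factors ranged from -1.13 to 0.98 and the subunits from -1.88 to 0.59. No test was run between these groups, since genes are not replicates. Among the 8 complex I factors, 3 (37.5%) were depleted with PABPC, near the 32.4% of all genes. NDUFAF2, which acts late in complex I assembly, fell from 145 RPM in input to 30.2 in PABPC RIP, with 118 in PABPN RIP, and had log2 fold changes of -2.07 ± 0.15 with PABPC and -0.44 ± 0.12 with PABPN. NDUFAF6 had -1.63 ± 0.10 with PABPC and 0.17 ± 0.091 with PABPN, going from 138 to 39 and 170 RPM. Both were higher with PABPN in the direct test, by 1.63 ± 0.19 (adjusted p = 6.1e-17) and 1.80 ± 0.14 (adjusted p = 2.5e-37). NDUFAF5, a hydroxylase that modifies NDUFS7, had -0.58 ± 0.16 with PABPC and -0.18 ± 0.11 with PABPN. NDUFAF7, a methyltransferase, was enriched with PABPN (0.70 ± 0.11) and not called with PABPC (0.022 ± 0.15). NDUFAF3 stood at the other end of the group, with -1.06 ± 0.11 for PABPN and 2.31 ± 0.10 for PABPC, followed by NDUFAF8 at 2.04 ± 0.19 with PABPC.

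Among the 8 complex IV factors, 7 were enriched and 1 was depleted with PABPC. COX10, which makes heme O for complex IV, was the depleted one (-1.03 ± 0.17), with -0.46 ± 0.16 for PABPN and levels of 88.9, 71.2 and 38.2 RPM in input, PABPN RIP and PABPC RIP. COX15, which converts heme O to heme A, was enriched with PABPC (1.21 ± 0.10) and not called with PABPN (-0.069 ± 0.10). COX19 and COX20 were enriched in both RIPs. COX19, linked to copper delivery, had 0.98 ± 0.16 with PABPN and 1.09 ± 0.12 with PABPC, going from 14.1 to 30.6 and 26.4 RPM. COX20, a chaperone of the mitochondrially encoded COX2 protein, had 0.65 ± 0.11 and 0.77 ± 0.12. Their differences between the antibodies, -0.12 ± 0.20 for COX19 and -0.12 ± 0.16 for COX20, did not pass the test (adjusted p = 0.6 and 0.51), which does not show that the levels were equal. COX14 was depleted with PABPN (-1.13 ± 0.13) and enriched with PABPC (1.84 ± 0.13).

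**Figure D3:**
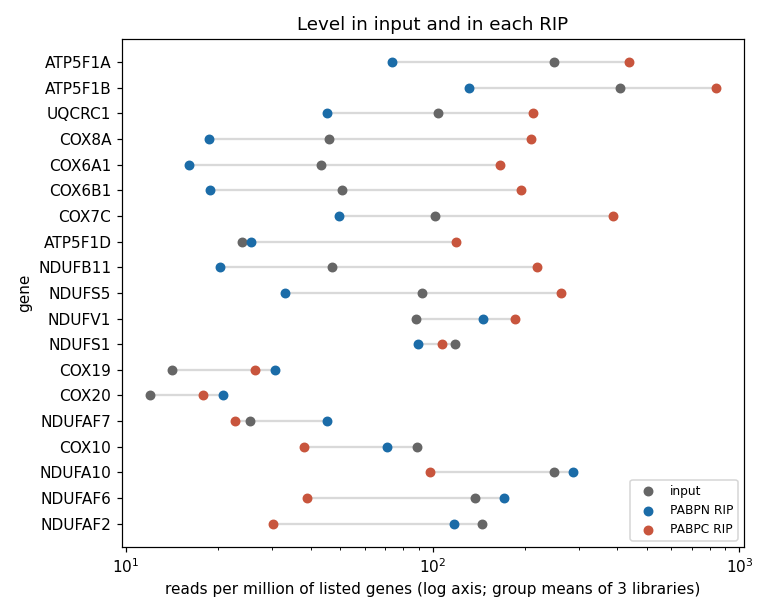
RPM (log axis) in input, PABPN RIP and PABPC RIP, as group means of 3 libraries worked out from the tables, for 19 genes named in the text. Most subunits lie lowest in PABPN RIP and highest in PABPC RIP, as ATP5F1B at 131 and 836. NDUFAF2, NDUFAF6, NDUFAF7, NDUFA10 and COX10 lie lowest in PABPC RIP, NDUFAF7 only slightly below input (22.6 against 25.4).

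The level in RPM is a within-gene scale here, since reads in introns and exons were counted together and no single length applies to both. Against the fold changes, the log2 ratio of these levels was 0.13 higher for PABPN and 0.19 lower for PABPC, since the size factors of the tables scale libraries differently from their totals.

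The genes differ in length, and the PABPC values differed with it. Of the 38 tested genes that span under 10 kb from start to end in the annotation, all 38 were enriched with PABPC (median 1.99), beside 87.9% of all protein coding genes of that length. Of 34 that span 10 to 30 kb, 33 were enriched (median 1.61), beside 64.6%. Of the 13 that span 30 to 100 kb, 11 were enriched and 1 was depleted (median 1.09), beside 24.9% and 24.7%. Of the 6 over 100 kb, 5 (83.3%) were depleted and 1 was enriched (median -1.08), beside 78.6% and 3.05%, so the share of depleted members was near that of all protein coding genes of this length. NDUFA12 spans 108 kb and was enriched (0.69 ± 0.14), and NDUFAF5 spans 36.6 kb and was depleted. The 5 depleted genes over 100 kb were COX10, NDUFA10, NDUFAF2, NDUFAF6 and NDUFS4. All protein coding genes had medians of 1.54, 0.80, 0.0011 and -1.26 in the same classes, each below the median of the members. Spearman's rho of span against the PABPC log2 fold change was -0.73 across the 91 genes and -0.77 across 12442 protein coding genes. These are descriptions across genes of the same libraries, and genes are not independent replicates.

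With PABPN the order of the classes was another. Of the members under 10 kb, 28 of 38 (73.7%) were depleted, beside 28.7% of all protein coding genes of that length. In the next classes 55.9%, 46.2% and 16.7% of the members were depleted, beside 17.6%, 15.0% and 10.6% of all protein coding genes. From the shortest class to the longest, 5.26%, 2.94%, 7.69% and 0% of the members were enriched with PABPN. Of all protein coding genes, 24.7%, 23.1%, 11.8% and 3.12% were enriched, so calls in both directions were more frequent among short genes. Spearman's rho of span against the PABPN log2 fold change was 0.35 across the members and -0.14 across all protein coding genes. Assembly factor genes had a median span of 22.0 kb and subunit genes of 12.2 kb, and whether this bears on their different values was not tested. Reads of introns were not told apart from reads of exons here.

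**Figure D4:**
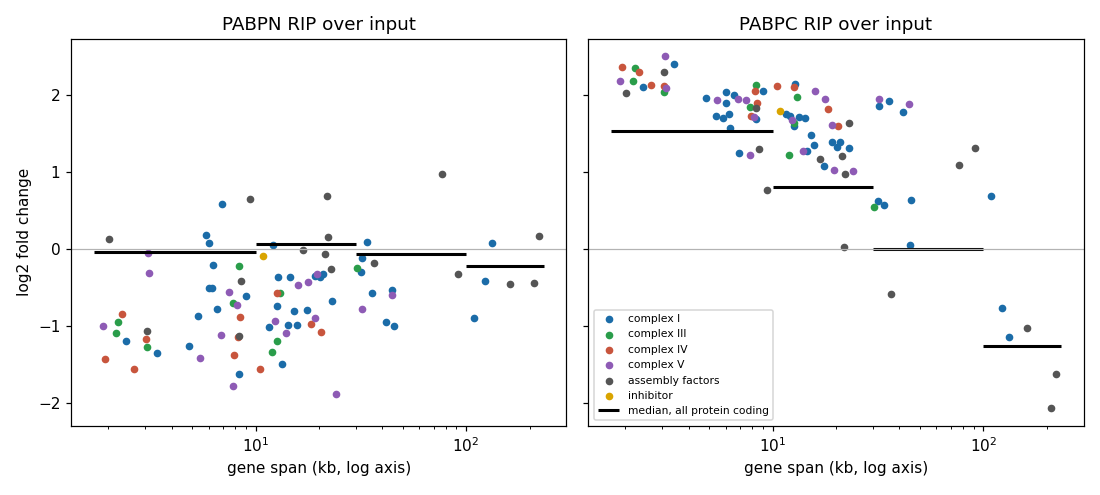
Log2 fold change with PABPN (left) and PABPC (right) against gene span on a log axis in kb, for the 91 tested genes coloured by complex and role. Thick lines are medians of all protein coding genes under 10, 10 to 30, 30 to 100 and over 100 kb. With PABPC the points fall with span, from a median of 1.99 to -1.08, and with PABPN most points under 30 kb lie below the lines.

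Other nuclear genes of the pathway were taken from a list of complex II, cytochrome c and assembly factors outside the name rule. Of 39 tested, 9 (23.1%) were depleted and 4 (10.3%) enriched with PABPN (median -0.12), where 14.6% and 17.5% of all tested genes were. With PABPC, 5 (12.8%) were depleted and 27 (69.2%) enriched (median 1.21), where 32.4% and 38.4% of all genes were. SDHA, the flavoprotein of complex II, was depleted with PABPN (-1.16 ± 0.11) and not called with PABPC (0.22 ± 0.11), and SDHD, a membrane anchor, had -0.75 ± 0.14 and 1.23 ± 0.16. SDHB was not called with PABPN (-0.43 ± 0.13) and was enriched with PABPC (1.46 ± 0.14). SDHC was called in neither RIP (-0.12 ± 0.10 and 0.13 ± 0.12). CYCS, cytochrome c, had -0.97 ± 0.17 with PABPN and 1.68 ± 0.20 with PABPC. The 34 assembly factors of this list had 6 (17.6%) depleted and 4 (11.8%) enriched with PABPN (median -0.037), beside the same shares of all genes. With PABPC, 5 (14.7%) were depleted and 24 (70.6%) enriched (median 1.20). The 16 factors of the name rule had medians of -0.12 and 1.14. BCS1L, a complex III factor, was enriched in both RIPs (1.03 ± 0.12 and 1.45 ± 0.14), and NUBPL, an iron-sulfur factor of complex I, was depleted with PABPC (-2.04 ± 0.10). Among 5 tested genes listed as regulators of the pathway, 1 (20%) was depleted and 1 (20%) enriched with PABPN. With PABPC, 1 (20%) was depleted and 2 (40%) enriched, beside the same shares of all genes as above. TFAM had -0.72 ± 0.14 with PABPN and 1.38 ± 0.18 with PABPC, and NRF1 had -0.15 ± 0.11 and -1.61 ± 0.12. ESRRA was enriched in both (0.82 ± 0.15 and 1.13 ± 0.13), and GABPA and PPRC1 were called in neither.

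The subunits encoded by mitochondrial DNA, whose short tails are added inside mitochondria, were taken as a list too. Of the 13 genes listed, 8 were tested with PABPN and all 8 were depleted (median -1.77), where 14.6% of all tested genes were. With PABPC 9 were tested, and 5 (55.6%) were depleted and none was enriched (median -0.51). Of all genes, 32.4% were depleted and 38.4% enriched with PABPC. MT-CO1 was tested with PABPC only, and MT-ND1, MT-ND2, MT-ND6 and MT-CYB in neither RIP. MT-CO2, the COX2 subunit, had -1.36 ± 0.092 and 0.37 ± 0.16, and MT-ND4L had -3.42 ± 0.14 and -1.87 ± 0.13.

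Genes of other large complexes are given for scale, with no test between lists. Of all tested genes, 14.6% were depleted with PABPN and 38.4% were enriched with PABPC. Cytosolic ribosomal proteins had 80 of 85 depleted with PABPN (median -1.29) and all 85 enriched with PABPC (median 2.06). Mitochondrial ribosomal proteins had 35 of 77 depleted (median -0.44) and 65 enriched (median 1.5), and proteasome subunits had 28 of 34 depleted (median -0.90) and 27 enriched (median 1.10).

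Promoters of the members were searched, as a description, for 3 short motifs of factors known to bind respiratory chain promoters. The windows were 300 bases around the RefSeq gene start (GRCh38.p14), most of them upstream of it, and 76 of the 91 genes had one. Those without one included ATP5F1B, ATP5F1D, ATP5MC3, ATP5MF, COX11, COX6C, NDUFA4, NDUFAF6, NDUFB5, NDUFB9, NDUFC2, NDUFS5, UQCRB and UQCRHL. A gene with several starts was counted once. A match to GCGCATGCG (NRF1), CCGGAAG (GABPA) or AAGATGGCG (YY1) on either strand was found for 39 of 76 members (51.3%), beside 21.5% of 14785 protein coding genes and 15.4% of all 27305 genes with a window. NRF1 letters were in 15.8% of members, 3.12% of protein coding genes and 2.34% of all genes. GABPA letters were in 32.9%, 16.9% and 12.2%, and YY1 letters in 13.2%, 3.36% and 2.14%. A GABPA and a YY1 match can share the letters AAG. Members with a match had medians of -0.57 with PABPN and 1.72 with PABPC (39 genes), and those without a match -0.56 and 1.80 (37 genes). The windows of COX6A1, among the most depleted with PABPN, and of NDUFAF2, the most depleted with PABPC, are shown with matches in capitals.
COX6A1, chr12:120437863-120438162, plus strand: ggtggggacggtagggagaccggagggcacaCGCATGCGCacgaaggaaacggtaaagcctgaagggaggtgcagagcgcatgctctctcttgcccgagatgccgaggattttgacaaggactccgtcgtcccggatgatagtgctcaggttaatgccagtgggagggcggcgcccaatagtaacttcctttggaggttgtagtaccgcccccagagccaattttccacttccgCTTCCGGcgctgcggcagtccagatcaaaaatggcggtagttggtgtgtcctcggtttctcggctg
NDUFAF2, chr5:60944955-60945254, plus strand: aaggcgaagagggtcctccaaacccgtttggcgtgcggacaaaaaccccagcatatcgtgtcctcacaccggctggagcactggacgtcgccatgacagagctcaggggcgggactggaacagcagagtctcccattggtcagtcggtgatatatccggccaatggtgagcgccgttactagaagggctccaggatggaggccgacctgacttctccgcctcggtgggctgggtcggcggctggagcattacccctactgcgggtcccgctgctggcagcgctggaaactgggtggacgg
The COX6A1 window holds an NRF1 and a GABPA match, and the NDUFAF2 window holds none of the letters searched. A match describes letters and not binding, and whether it bears on the RIP values was not tested.

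Of the tested members, 60 overlap another gene in GENCODE release 44, 41 of them a protein coding one. The authors removed stretches shared by genes in their own annotation, and how much of each member this took away was not measured here. COX20 lies over HNRNPU on the opposite strand, COX19 over ADAP1 on the same strand and NDUFAF7 over PRKD3 on the opposite strand. NDUFAF6 overlaps 10 other genes, 3 of them protein coding, among them PLEKHF2 on the same strand. The part of these neighbours in the values of COX19, COX20, NDUFAF6 and NDUFAF7 was not tested. Whether the count used strand is not given in the sources used here. Pseudogene copies with member names numbered 134 per table, and none had baseMean above 50.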

How the data were processed

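RNA was measured by total RNA sequencing of 3 input, 3 PABPN RIP and 3 PABPC RIP libraries of HEK293T cells, grouped by sample titles (single-end 75-nt reads, ribosomal RNA depleted). The authors aligned reads to hg38 with STAR and counted them with featureCounts 2.0.2 over exons and introns together, in an annotation without overlapping stretches or readthrough transcripts. They removed genes with transcription running in from upstream, separately for each RIP. Using DESeq2, the authors set each RIP against input, and the 2 deposited tables rest on 6 libraries each.

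The signal deposited by the authors, baseMean, is a mean of counts divided by size factors. Fold changes of RIP over input and their standard errors were deposited on the log2 scale, and the p-value columns deposited by them are the Wald p and its Benjamini-Hochberg adjusted value. A gene length in bases was also deposited. The tables hold nothing else that is measured, so the fold changes, errors and adjusted p used here are those of the authors' own comparisons. Of repeated rows, 123 in each table, the first was kept.

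From these, group means were worked out from baseMean and the fold change. Between tables, input means were offset by a constant -0.23 on the log2 scale (SD 0.00228). Depth was worked out from genes with 1 read in 1 library, 36500000 to 52200000 reads per library, and the number of reads limits low genes only. The difference between RIPs was tested with a two-sided normal test and Benjamini-Hochberg adjustment over 14579 genes. The step was run on simulated data with independent normal errors, which leave out the shared input and so cannot check its effect. Values used Python 3.11.15, pandas 2.3.3, numpy 2.4.6 and scipy 1.17.1, with gene spans and overlaps from GENCODE release 44.

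Members and lists were chosen with earlier results of these data known. Genes given with values were, in each complex and in the assembly factors, the 2 lowest and 2 highest fold changes per comparison, members called against the more frequent direction, core subunits, copies and the inhibitor. A few others were named after their values were seen, namely COX15, NDUFA12 and the genes of the other lists. Grouping within complexes was made after values were seen. Alternatives varied the cut-offs, the filter on baseMean, centring, the test, the copies, the total behind shares and the complex of NDUFA4. COX7A2L and other symbols outside the listed protein coding genes were not analysed here. The values of a core subunit are not reported here.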

Additional observations from a re-analysis of the deposited data

How the results depend on the processing

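No paired analysis was possible because values per library were not used here, and for the same reason the edgeR and DESeq2 fits and leaving out each replicate were not run. With a cut-off of 1 on the log2 scale, 24 members were depleted and 0 enriched with PABPN, in place of 54 and 4. When the Wald test asked whether the change itself was beyond 0.5, these counts were 29 and 0, and the PABPC counts were 76 enriched and 4 depleted in place of 83 and 6. With each comparison centred on its median, 7 in place of 4 members were higher with PABPN. Centring moved the PABPC medians to 1.56 for complex I, 1.85 for complex III, 1.97 for complex IV and 1.80 for complex V. With protein coding genes alone in the total, the share of members in PABPN RIP was 0.439%. The cause was not tested for any of these. No called member changed direction under the alternatives run, while uncalled values near 0 can change sign when centred, and the other counts, medians and shares stayed within 1.5 times their value or their spread. Counting NDUFA4 with complex I, chosen after seeing the data, gave medians of -0.59 and 1.70 there.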
